A study of Mus musculus with 6 samples.

Results

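This account follows 6 genes of antibody-producing cells, Ighm, Igha, Jchain, Igkv8-30, Igkv9-120 and Mzb1, among 18193 genes measured on mouse kidney arrays. The genes were chosen with their values on these arrays known, and each is represented by the probe set with the highest mean intensity among those that the platform annotation gives to that gene alone. Their values are therefore a description, with no test. All 6 passed the intensity filter that kept 12734 genes (a mean log2(intensity + 16) no lower than the 40th percentile over the probe sets that are not controls).

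RNA came from kidneys of male FVB/N mice aged 6 to 8 weeks and weighing 22 to 26 g. Under pentobarbital anesthesia the pedicle on 1 side was closed with a clamp for 0, 45 or 60 min, and kidneys were taken 1 or 3 days later, which gave 6 groups. The labels describe the same operation for the 0 min groups. Each group had 1 array, and the labels do not say how many animals gave its RNA, so clamp time and the single kidney or array cannot be told apart.

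Plasma cells are B lineage cells that secrete antibody. An antibody joins heavy chains, which set its class (Ighm encodes the IgM constant region and Igha that of IgA), to light chains, of which most in the mouse are kappa chains built from a variable segment such as Igkv8-30 or Igkv9-120. Jchain encodes the joining chain that links IgA into dimers and IgM into pentamers, and Mzb1 encodes an endoplasmic reticulum protein that helps B and plasma cells assemble and secrete antibody. IgA with its joining chain is carried across epithelia by the receptor that Pigr encodes.

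Array medians lay between 81.4 and 95.3, with 18.4% to 20.6% of probe sets under an intensity of 16. The loop of Henle transcript Umod, a kidney marker, lay between 27164 and 39076 on all 6 arrays. Havcr1, the tubular injury marker, had intensities of 599, 4216 and 13011 at 0, 45 and 60 min of day 1, and of 1242, 2548 and 11483 at day 3, so the clamped kidneys were above the 0 min kidney on each day. RNA quality was read from the beta-actin controls as log2 of the 3' over the 5' value, which was 1.12, 1.10 and 1.08 at 0, 45 and 60 min of day 1, and 0.77, 1.03 and 0.49 at day 3. A lower ratio means relatively more signal at the 5' end. The same ratio of the Gapdh controls lay between -0.37 (60 min of day 3) and -0.20 (60 min of day 1).

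The IgA heavy chain, the joining chain and the kappa segments had very low values in the 45 min kidney of day 1, low values in the 60 min kidneys of both days, and high values in the 0 min kidneys and in the 45 min kidney of day 3. Igha had intensities of 13435, 369 and 2395 at 0, 45 and 60 min of day 1. The day 3 kidneys had 10885, 12185 and 1587. The 45 min kidneys thus held both the lowest value and, at day 3, a value above that of the 0 min kidney. The 45 min kidney of day 1 was 36.4-fold below its 0 min kidney in intensity, and the 60 min kidneys were 5.61-fold below at day 1 and 6.86-fold below at day 3. In bulk tissue such as this, fewer cells of a type and less RNA per cell cannot be told apart.

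Jchain had intensities of 4182, 137 and 592 at 0, 45 and 60 min of day 1, and of 2534, 2989 and 379 at day 3. Its order of arrays differed from that of Igha in no place: 0 min of day 1 was highest, then 45 min and 0 min of day 3, then the 60 min kidneys of day 1 and day 3, and 45 min of day 1 was lowest. Differences below are of log2(intensity + 16), in which the added 16 damps noise in dim probe sets and understates the change of dim genes. On that scale Jchain was lower by -4.78 in the 45 min and by -2.79 in the 60 min kidney of day 1, each against 0 min of that day, and by -2.69 in the 60 min kidney of day 3. The 45 min kidney of day 3 differed from its 0 min kidney by 0.24.

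The kappa segment Igkv8-30 had intensities of 2936, 86.2 and 437 at 0, 45 and 60 min of day 1, and of 918, 2472 and 269 at day 3. The lowest value was again at 45 min of day 1. At 45 min of day 3 it was higher by 1.41 (log2) than in the 0 min kidney of that day. No other member reached 2-fold there on its representative probe set. That 0 min kidney was itself below the 0 min kidney of day 1 by -1.66, while Igha differed between the same kidneys by -0.30 and Jchain by -0.72. Igkv8-30 has 1 probe set of its own. The annotation gives 3 bright probe sets to Igkv8-30 together with other kappa genes. On these the 45 min kidney of day 3 differed from its 0 min kidney by 0.17 to 0.34. Between the 0 min kidneys, day 3 differed from day 1 by -0.65 to -0.37.

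Igkv9-120, the other kappa segment, was dimmer. It had intensities of 431, 7.60 and 41.8 at 0, 45 and 60 min of day 1, and of 178, 146 and 35.5 at day 3. The value at 45 min of day 1 lay below the added 16, so its log2 difference from 0 min (-4.24) is set in part by that number. The 0 min kidneys had the 2 highest values and the 45 min kidney of day 3 came next.

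Ighm, the IgM heavy chain, varied less on its representative probe set. There the 45 min kidney of day 3 lay below both 0 min kidneys, and the 3 lowest arrays were the same as for Igha. The intensities of Ighm were 365, 171 and 202 at 0, 45 and 60 min of day 1, and 475, 319 and 172 at day 3. The 0 min kidney was highest on each day, and the values at 45 and 60 min of day 1 and at 60 min of day 3 lay close together. The differences from 0 min were -1.03 at 45 min and -0.81 at 60 min of day 1, and -0.55 and -1.38 at day 3. The first of these lay at the 2-fold line and was -0.87 with 64 added in place of 16, and -0.68 as the mean of the gene's probe sets. That mean counts probe sets below the filter level and also brought the difference at 60 min of day 3 to -0.65. The 7 probe sets at that level had medians of -1.05 at 45 min of day 1 and -1.65 at 60 min of day 3.

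Mzb1 had intensities of 221, 121 and 135 at 0, 45 and 60 min of day 1, and of 160, 145 and 89.7 at day 3. It was lower in each clamped kidney than in the 0 min kidney of its day, by -0.79 and -0.66 at 45 and 60 min on day 1, and by -0.13 and -0.74 on day 3. None of these reached 2-fold. Its lowest array was 60 min of day 3, whereas the other 5 members were lowest at 45 min of day 1.

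**Figure D1:**
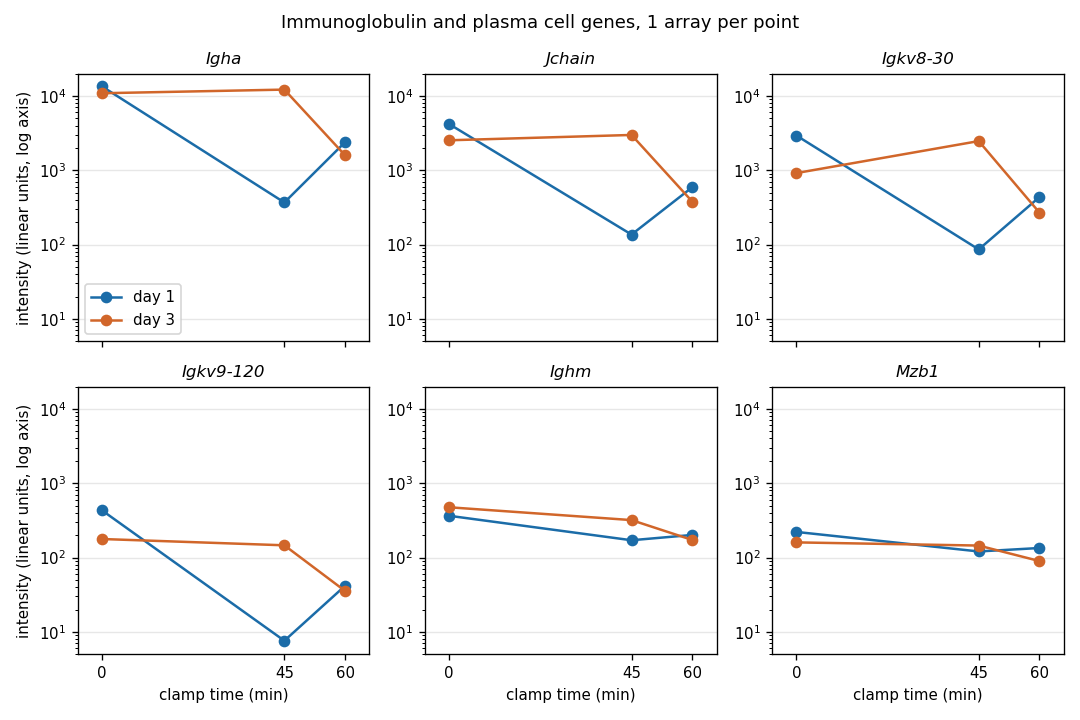
Intensity (log axis) against clamp time in minutes for the 6 genes, 1 array per point, with a line for each day. Igha, Jchain, Igkv8-30 and Igkv9-120 had their lowest point at 45 min of day 1 (369, 137, 86.2 and 7.60), and Ighm and Mzb1 stayed within a narrower band.

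The IgA and kappa genes had a wider spread over the 6 arrays than Ighm and Mzb1. The range of log2 values, highest minus lowest array, was 5.13 for Igha, 4.85 for Igkv8-30, 4.78 for Jchain and 4.24 for Igkv9-120. In order of range among the 12734 genes they stood at places 5, 9, 11 and 25. Ighm (1.39) and Mzb1 (1.17) stood at places 1361 and 2063. The Ighm value is that of its representative probe set, the narrowest of the 7 at the filter level. The others had ranges from 1.56 to 3.15. These places describe the values by which the genes came to be chosen.

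The members' likeness was measured as the root mean square difference between log2 profiles over the 6 arrays, each centred on its own mean. Igha and Jchain were the closest pair (0.27), followed by Ighm and Mzb1 (0.35) and by Jchain and Igkv8-30 (0.38). Between the IgA and kappa genes on the one hand and Ighm on the other the value ran from 0.98 (Igkv9-120) to 1.44 (Igha), and Mzb1 lay 1.66 from Igha. This measure includes the size of the range as well as the order of arrays, and their parts in these distances were not separated. The narrower ranges of Ighm and Mzb1 enter it. The order of arrays differed too: Ighm was highest at 0 min of day 3 and Mzb1 lowest at 60 min of day 3, unlike Igha.

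Counted at 2-fold, 5 of the 6 members were lower in the 45 min kidney than in the 0 min kidney of day 1, where 1.06% of all genes were. For 60 min against 0 min the counts were 4 lower at day 1 (1.71% of all genes) and 5 lower at day 3 (2.32%). For 45 min against 0 min at day 3, 1 member was higher (1.5%) and 0 were lower (0.785%). These counts use representative probe sets. Over the 7 Ighm probe sets at the filter level this last difference ran from -2.27 to 0.39, with 2 at least 2-fold lower. The median difference of the 6 members was -4.51 and -2.59 at 45 and 60 min of day 1, and 0.02 and -1.81 at day 3, while the median of all genes lay between -0.03 and 0.04 in these comparisons. The members were chosen with these contrasts known, and the comparisons of a day share its 0 min array.

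The longer clamp stood above the shorter at day 1 and below it at day 3. In the 60 min against the 45 min kidney 4 members were at least 2-fold higher at day 1 (1.02% of all genes), with Igha at 2.65, Igkv8-30 at 2.15, Jchain at 2.00 and Igkv9-120 at 1.29 (0.56 with 64 added, and 0.61 as the mean of its probe sets). At day 3 the same 4 genes were at least 2-fold lower (2.4% of all genes), at -2.93, -3.13, -2.93 and -1.66. The last was just under 2-fold (-0.998) as the mean of its probe sets. Mzb1 differed by 0.14 at day 1 and -0.61 at day 3. Ighm differed by 0.22 and -0.83 on its representative probe set, but its 7 probe sets at the filter level gave -1.09 to 0.22 for day 1, and -1.51 to 1.22 for day 3, so neither sign holds over the gene. The 45 min kidneys are the arrays that differ here: Igha at 45 min was 33.0-fold higher in intensity at day 3 than at day 1, while at 60 min the day 3 kidney held 0.663 of the day 1 intensity.

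Across days, 4 members were at least 2-fold higher at day 3 than at day 1 among 45 min kidneys (1.19% of all genes), namely Igha (4.99), Igkv8-30 (4.61), Jchain (4.30) and Igkv9-120 (2.78). Among 60 min kidneys 0 members differed by 2-fold in either direction (4.1% of all genes), and the differences ran from -0.17 (Igkv9-120) to -0.67 (Igkv8-30). These are values of representative probe sets. The 7 Ighm probe sets at the filter level gave -0.21 to 2.03 for the 60 min kidneys (median 0.45). Among 0 min kidneys Igkv8-30 (-1.66) and Igkv9-120 (-1.21) were at least 2-fold lower at day 3 (1.4% of all genes). Ighm was higher by 0.37 on its representative probe set. Over its 7 probe sets at the filter level the difference ran from 0.06 to 1.93 (median 1.35). Igkv9-120 differed by -0.43 between the 0 min kidneys as the mean of all its probe sets, which includes a probe set below the filter level. The 2 probe sets at that level gave -1.21 and -1.08.

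The size of the average differences of Igha, Jchain, Igkv8-30 and Igkv9-120 depended on single arrays. In an additive fit of clamp time and day over all 6 arrays (limma), the mean of the clamped kidneys minus that of the 0 min kidneys was -2.55 ± 1.22 for Igha, -2.51 ± 1.12 for Jchain, -1.96 ± 1.31 for Igkv8-30, -2.34 ± 0.81 for Igkv9-120, -0.94 ± 0.24 for Ighm and -0.58 ± 0.20 for Mzb1 (SE, 2 residual degrees of freedom). Without the 45 min array of day 1 the values for Igha, Jchain, Igkv8-30 and Igkv9-120 were -1.19, -1.26, -0.52 and -1.47, and without the 0 min array of day 1 they were -1.30, -1.23, -0.15 and -1.08. Without the 45 min array of day 3 they were -3.91, -3.75, -3.41 and -3.21, and without the 0 min array of day 3 they were -3.80, -3.78, -3.78 and -3.60. Without the 60 min array of day 3 the value for Igha was -1.82. Ighm ran from -1.14 to -0.74 and Mzb1 from -0.75 to -0.40 over the 6 fits with an array left out. Over all genes limma called 0 of 12734 (0.0%) at an adjusted p under 0.05 for clamped against 0 min kidneys, with 1858 genes (14.6%) at an unadjusted p under 0.05.

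**Figure D2:**
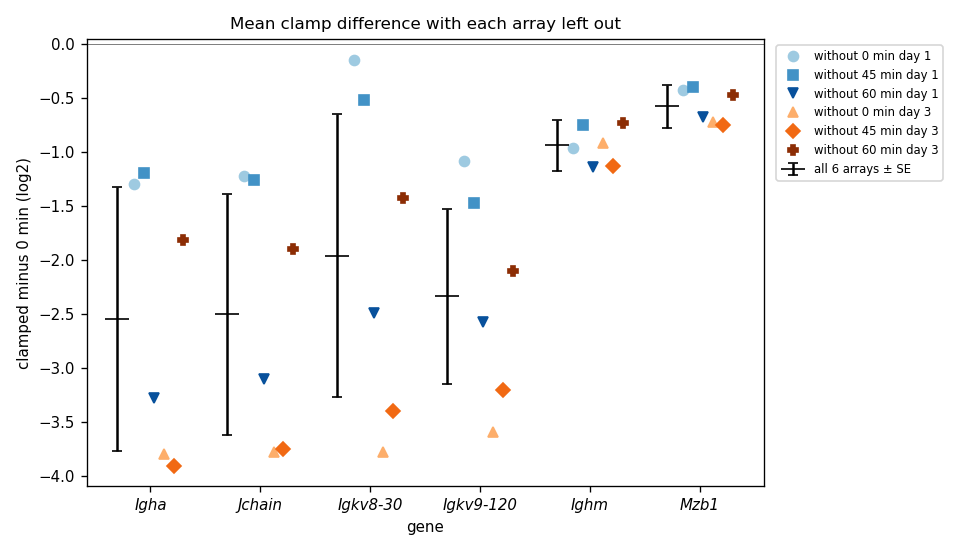
Mean of clamped minus 0 min kidneys (log2) from the additive fit for each gene, with all 6 arrays (black bar, ± SE) and with each array left out (coloured symbols). For Igha the values ran from -3.91 without 45 min of day 3 to -1.19 without 45 min of day 1, and for Ighm from -1.14 to -0.74.

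The other probe sets of the members showed how far each pattern held within a gene. The 3 Igha probe sets differed little: from 45 min against 0 min at day 1 they gave -5.21 to -5.03, and from 60 min against 0 min at day 3 -2.77 to -2.39. All 3 were highest at 0 min and lowest at 45 min of day 1. Of the 11 Ighm probe sets 7 reached the filter level. Among these, 6 were highest at 0 min of day 3 and 1 at 45 min of day 3, while 4 were lowest at 45 min and 3 at 60 min of day 1. The difference of 60 min from 0 min at day 3 ran from -2.02 to -0.39 over these probe sets, with 6 of 7 at least 2-fold lower. The second brightest had an intensity of 684 at 0 min of day 3, against 168 or less at day 1, so the size of the day effect in Ighm depends on the probe set. Of 3 Igkv9-120 probe sets 2 reached the filter level, and the dimmer of these gave -1.18 for 45 min against 0 min at day 1, where the representative gave -4.24.

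Several of these probe sets carry names ending in x_at or s_at, which on this platform mark probes that match more than 1 transcript. The values of Ighm, Igkv8-30 and Igkv9-120 rest on such probe sets and may include related immunoglobulin transcripts, so the segment names are uncertain. Of the probe sets that the annotation gives to several kappa genes at once, 3 were bright. The brightest had intensities of 13749, 666 and 4225 at 0, 45 and 60 min of day 1, and of 10432, 12100 and 2829 at day 3. The 3 lay 0.15 to 0.42 from the Igha profile by root mean square difference, and each had the same order of arrays as Igha. A dimmer probe set of several kappa genes also reached the filter level. It had intensities of 114, 46.9 and 46.1 at 0, 45 and 60 min of day 1, and of 68.1, 86.5 and 37.5 at day 3. That probe set was lowest at 60 min of day 3 and lay 1.55 from the Igha profile.

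**Figure D3:**
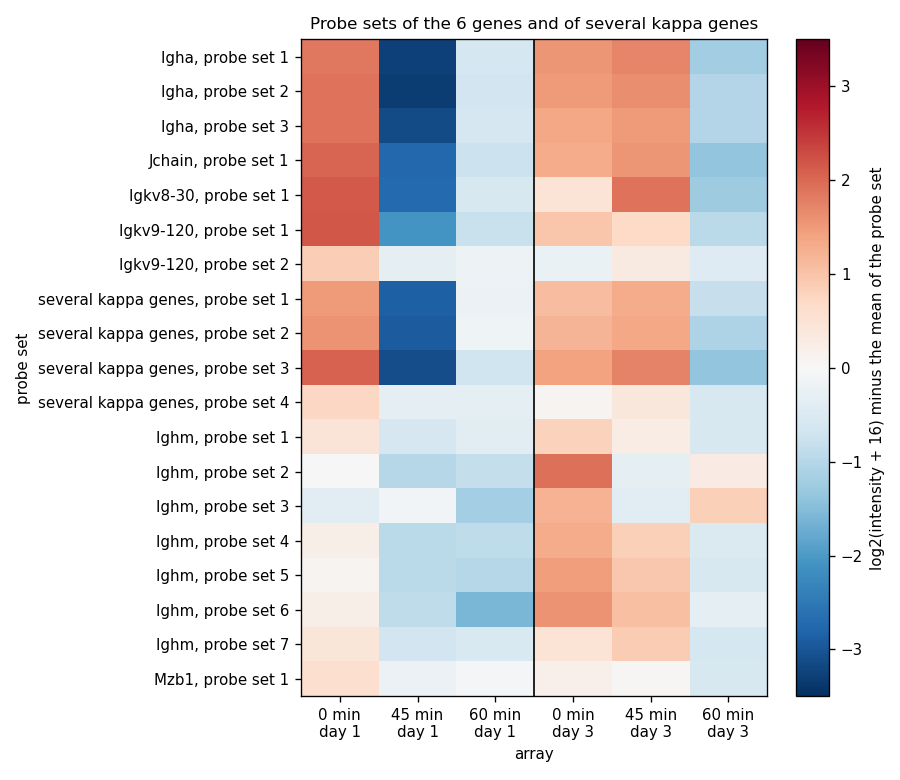
Each row is a probe set at or above the filter level and each column an array, and colour gives log2(intensity + 16) minus the mean of the row. The Igha, Jchain, Igkv8-30 and bright kappa rows share a deep minimum at 45 min of day 1, and 6 of the 7 Ighm rows have their maximum at 0 min of day 3.

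Other immunoglobulin genes on the array were dim. Of 16 with a probe set of their own, 2 passed the filter. Igk, a kappa chain entry, had intensities of 196, 11.6 and 46.3 at 0, 45 and 60 min of day 1, and of 131, 160 and 30.5 at day 3, which is the order of arrays of Igha within a narrower range. Ighg3, the heavy chain of an IgG class, had 37.9, 23.0 and 42.4 at day 1, and 91.6, 85.5 and 37.9 at day 3. Over all 16 genes, most near background, the median intensity was 37.6, 9.98 and 15.4 at 0, 45 and 60 min of day 1, and 42.9, 43.2 and 17.0 at day 3. The lambda segment Iglv1, which did not pass the filter, had 43.1, 3.58 and 14.3 at day 1, and 86.5, 106 and 17.7 at day 3.

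Markers of plasma cells other than antibody chains gave a mixed picture. Tnfrsf17, which encodes the plasma cell survival receptor BCMA, did not pass the filter and had intensities of 41.6, 2.85 and 4.15 at 0, 45 and 60 min of day 1, and of 25.6, 34.3 and 18.2 at day 3. Pou2af1, a B lineage coactivator, was also below the filter, with 57.3, 19.3 and 5.37 at day 1, and 69.8, 51.7 and 35.8 at day 3. Both were lower in the clamped kidneys of day 1 than at 0 min, at intensities where noise is large. The regulator Irf4 lay between 31.2 and 53.2, below the filter. Prdm1, the regulator of plasma cell identity, ran from 67.7 at 60 min of day 1 to 145 at 45 min of day 1, the array where Igha was lowest.

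Plasma cell genes that the kidney itself also expresses had a narrow range or another order of arrays. Xbp1, the factor that expands the secretory pathway, lay between 10005 and 13567 on all arrays. Sdc1, which encodes the surface proteoglycan CD138 and is also an epithelial gene, had intensities of 648, 654 and 987 at 0, 45 and 60 min of day 1, and of 367, 375 and 1310 at day 3. Of 8 plasma cell regulators and surface markers past the filter, 0 were at least 2-fold lower at 45 min of day 1 than at 0 min (1.06% of all genes), and 3 were higher (7.58%) and 1 lower (2.32%) at 60 min of day 3.

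The secretion machinery of the endoplasmic reticulum, in which Mzb1 acts, held bright genes such as Hspa5 (13431 to 24103) and dimmer ones such as Tram2 (185 to 347). Of its 21 genes, all of which passed the filter, 0 were at least 2-fold lower at 45 min of day 1 than at 0 min (1.06% of all genes), 1 was lower at 60 min of day 1 (1.71%) and 0 were lower at 60 min of day 3 (2.32%). Derl3, which encodes an endoplasmic reticulum degradation factor, had intensities of 335, 192 and 136 at 0, 45 and 60 min of day 1, and of 177, 355 and 154 at day 3. Creld2 (2408 and 5329 at 0 and 45 min of day 3) and Herpud1 (6046 and 12102) were highest at 45 min of day 3. In the 45 min kidneys 5 of the 21 were at least 2-fold higher at day 3 than at day 1 (1.19% of all genes), where Igha was higher by 4.99 (log2).

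Among signals that hold or draw plasma cells, Ccl28 stood out in range. It encodes an epithelial chemokine that attracts IgA plasma cells bearing the receptor CCR10. Ccl28 had intensities of 8240, 590 and 2105 at 0, 45 and 60 min of day 1, and of 2473, 3857 and 928 at day 3. Its lowest value was at 45 min of day 1, and at day 3 the 45 min kidney was highest and the 60 min kidney lowest, as for Igkv8-30. Its mean difference of clamped from 0 min kidneys was -1.62 ± 0.94 and was not called by limma. Ccr10 was below the filter, with 47.6 at 0 min of day 1 and 4.94 to 26.7 on the other 5 arrays.

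Pigr, the receptor that transports IgA bound to its joining chain, had intensities of 6557, 1611 and 3006 at 0, 45 and 60 min of day 1, and of 2767, 3622 and 1093 at day 3. It was lower by -2.01 at 45 min and by -1.12 at 60 min of day 1, and by -1.33 at 60 min of day 3, and it differed by 0.39 at 45 min of day 3. Its lowest array was 60 min of day 3, and at day 1 the 45 min kidney was lowest as for Igha. The receptor gene Fcamr, whose product binds IgA and IgM, had 152, 51.3 and 61.8 at day 1, and 105, 128 and 79.1 at day 3.

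Of all genes past the filter that are not members, those nearest in profile were named for each member over the 6 arrays. For Igha these were Tc2n (0.65), Igk (0.83) and Cyp7b1 (0.88), and the same genes came first for Jchain (0.57, 0.66 and 0.67). Cyp7b1, which encodes an oxysterol hydroxylase, had intensities of 13732, 1391 and 2373 at 0, 45 and 60 min of day 1, and of 12608, 7714 and 887 at day 3. Ccl28 was nearest to Igkv8-30 (0.62), followed by Igk (0.68) and Tc2n (0.71). For Igkv9-120 the order was Igk (0.44), Ccl28 (0.47) and Apoh (0.60), which encodes a plasma glycoprotein. Ighm and Mzb1, with narrow ranges on their representative probe sets, had many near genes. The nearest to Ighm were the creatine kinase gene Ckb (0.13), Osgin1 (0.15) and the protein C gene Proc (0.15). For Mzb1 they were Panct2 (0.10), Thnsl1 (0.10) and Tmem205 (0.10).

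**Figure D4:**
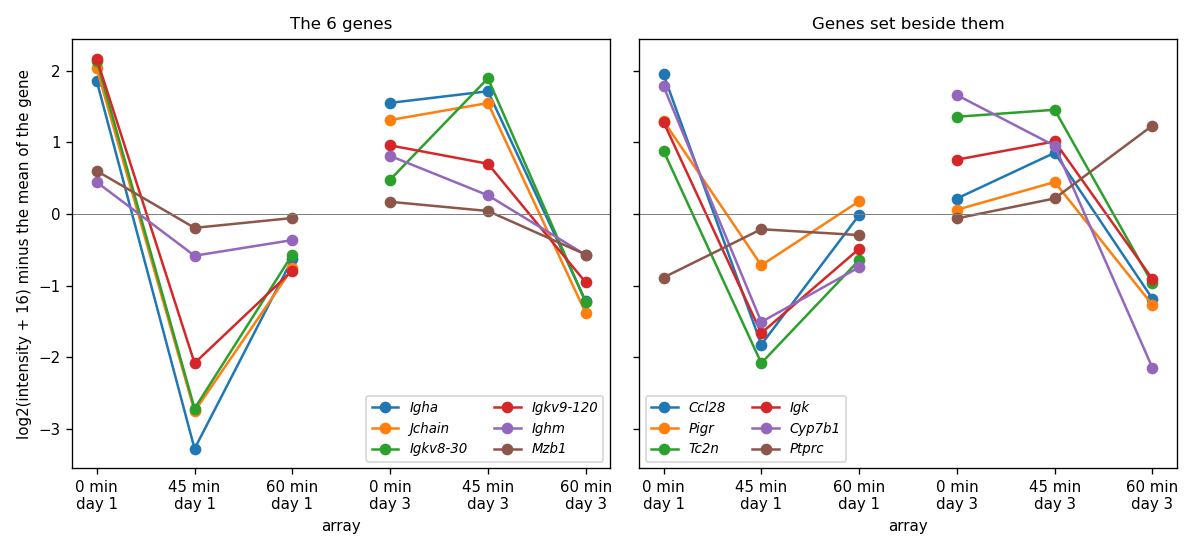
Log2(intensity + 16) minus the mean of each gene on the 6 arrays, for the 6 genes (left) and for genes set beside them (right), with a gap between days. Ccl28, Tc2n and Igk had their minimum at 45 min of day 1 as Igha did, Pigr and Cyp7b1 had theirs at 60 min of day 3, and Ptprc, a marker of all leukocytes, had its maximum there.

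General leukocyte markers had their lowest sum at 0 min of day 1, where Igha was highest, and their highest sum at 60 min of day 3, where Igha was low. The pan-leukocyte gene Ptprc had intensities of 406, 657 and 620 at 0, 45 and 60 min of day 1, and of 731, 890 and 1818 at day 3. The summed intensity of 9 general leukocyte and macrophage markers was 5579, 8954 and 9108 at day 1, and 9832, 13830 and 33378 at day 3, and 8 of the 9 were at least 2-fold higher at 60 min than at 0 min of day 3 (7.58% of all genes). Lyz2 led the sum at 60 min of day 3 with 17100. Cd14 was lowest at 0 min of day 3 (476), and Csf1r (1965) and Itgam (38.3) at 60 min of day 1. The other markers of this list were lowest at 0 min of day 1. Of 21 B cell markers 11 passed the filter, with sums of 2599, 2620 and 2427 at 0, 45 and 60 min of day 1, and of 3246, 3928 and 5361 at day 3. These sums are led by genes such as Cd74 that macrophages also express. The B cell receptor gene Cd79a lay between 1.52 and 11.1, at background, and Cd79b between 21.4 and 98.8 with its highest value at 60 min of day 3. Ms4a1, which encodes CD20, had 49.2, 65.0 and 26.2 at day 1, and 83.5, 32.7 and 60.5 at day 3. At 45 min of day 1, where Igha was lowest, 0 of the 11 B cell markers were at least 2-fold below 0 min (1.06% of all genes, so a count near 0 is the background).

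Tissue that could enter a kidney sample with its own plasma cells was checked by markers. Of 4 lymph node stroma genes on the array, Cxcl13, a B cell chemokine, passed the filter, with 149, 125 and 88.1 at 0, 45 and 60 min of day 1, and 142, 91.2 and 41.0 at day 3. The other 3 were below the filter. At 0 min of day 3, where 6 Ighm probe sets were highest, Glycam1 had 69.0 (1.96 to 8.02 on the other 5 arrays), while Madcam1 had 3.24, its lowest value (41.7 at 0 min of day 1), and Cr2 had 52.4 (68.6 at 0 min of day 1). The part of lymph node tissue in the Ighm values was not tested. Summed intensities at 0, 45 and 60 min of day 1 and then of day 3 were 35746, 30529, 27024, 36890, 35809 and 25975 for 6 perirenal fat markers. Lpl and Fabp4 led this sum and moved in opposite directions. In the 60 min against the 0 min kidney, Lpl differed by -1.07 (log2) on day 1 and -1.31 on day 3. Fabp4 (0.19 and 0.20) and Ucp1 (1.28 and 1.29) were higher there. Adipoq (-0.69 and -0.04), Cidec and Retn were lower, so the sum does not stand for each marker. For 6 urothelium markers the sums were 911, 840, 674, 795, 717 and 880. For 2 red blood cell markers they were 902, 915, 504, 1407, 837 and 207, and for 2 T and NK cell markers 117, 73.5, 86.2, 175, 158 and 196. T cells were near background, with Cd3e between 12.3 and 53.4. The part of these tissues in the Igha values was not tested, nor was that of RNA quality. The beta-actin 3' over 5' ratio was 1.08 to 1.12 on day 1, and 0.49 to 1.03 on day 3, where the ratio was lowest at 60 min.

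**Figure D5:**
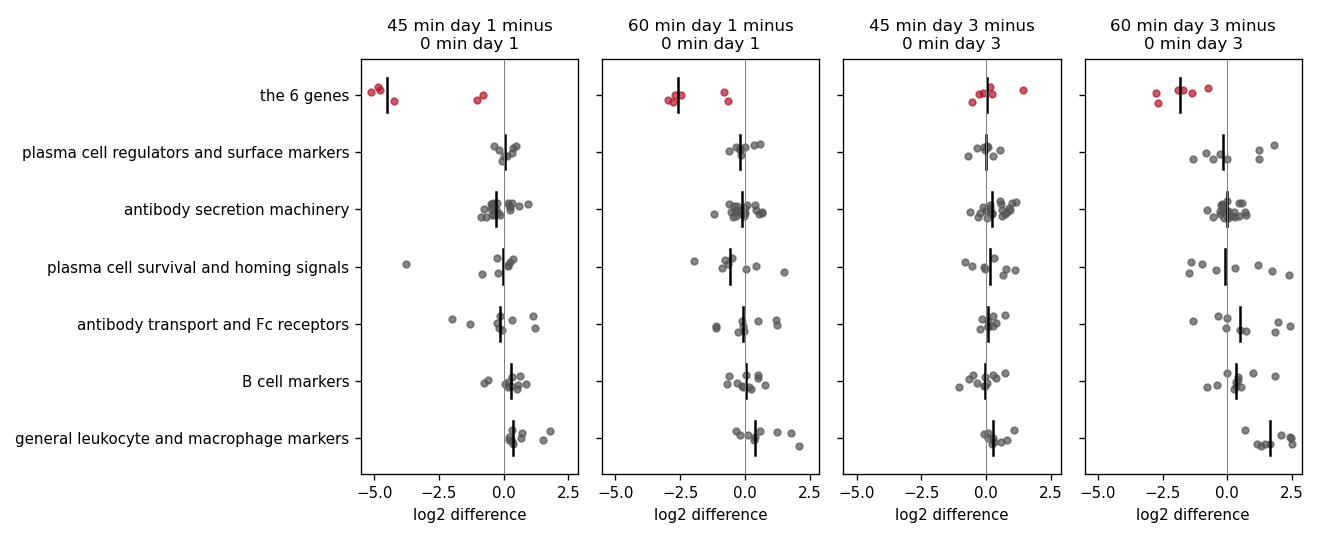
Log2 difference of each clamped kidney from the 0 min kidney of its day for the 6 genes (red) and for genes of 6 lists past the filter (grey), with the median as a black bar. The median of the 6 genes was -4.51, -2.59, 0.02 and -1.81 from left to right, and that of leukocyte and macrophage markers 0.37, 0.41, 0.28 and 1.65.

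Over all 13 lists limma called 0 genes in clamped against 0 min, in 60 against 45 min and in day 3 against day 1 (0.0% of all genes in each). For the last 2 contrasts 1661 (13.0%) and 1153 (9.05%) of all genes had an unadjusted p under 0.05. By that measure the B cell list held 5 genes higher at day 3 and 0 lower among 11. The leukocyte and macrophage list held 6 higher at day 3 among 9, and the antibody transport and Fc receptor list 4 among 9, with 0 lower in each. The secretion machinery held 2 genes higher and 0 lower among 21 in clamped kidneys. The plasma cell regulators held 0 of 8 in clamped against 0 min, where 14.6% of all genes had such a p. In 60 against 45 min they held 3 of 8, of which 1 was higher and 2 were lower. The kidney marker list (9 genes) held 4 lower in clamped kidneys and 6 lower in 60 against 45 min, with 0 higher in each.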

How the data were processed

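Total RNA was extracted with Trizol and labelled with a 3' IVT kit, per the labels' protocols. The deposited table gives linear intensities of probe sets, made with Affymetrix Expression Console per the submitters' processing notes; the summarisation algorithm is not given in the sources used here. The mean after trimming 2% at each end was 500.003 on each array, so the authors had scaled the arrays alike.

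The table holds 45101 probe sets. Controls number 64, and the annotation gives 34945 a gene symbol of their own, 932 several and 9160 none. Genes were represented by their brightest probe set with 1 symbol, and log2(intensity + 16) was used. Comparisons of 1 array with another were called at 2-fold with no test. limma 3.58.1 in R 4.3.3 fitted clamp time plus day over all 12734 filtered genes (Benjamini-Hochberg, adjusted p under 0.05) and was tested on simulated data. The number of arrays limits the precision. The members and the 13 lists were chosen with earlier results of these data known. Named list genes were the 5 with the largest range among those past the filter in each list, from which the text takes examples, plus a set of markers always named; the other genes named, among them Ccr10, Fcamr, Glycam1, Madcam1, Cr2 and Iglv1, were chosen after their values were seen. Tnfsf13, in that set, had no probe set of its own. Predicted genes were passed over among the nearest profiles. Alternatives were the added constant, quantile normalization, median centring, the mean of probe sets (those below the filter level included), the filter and leaving out arrays.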

Additional observations from a re-analysis of the deposited data

Results flagged for a closer look

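For some members the difference between clamp times had opposite signs on the 2 days. There is 1 array per group, so this change of sign was not tested. For 45 min minus 0 min, the day 3 difference exceeded that of day 1 by 5.29 (log2) for Igha, 5.02 for Jchain and 6.27 for Igkv8-30. For 60 min minus 45 min, the day 3 difference was below that of day 1 by -5.58 for Igha, -4.92 for Jchain, -5.27 for Igkv8-30, -2.95 for Igkv9-120, -1.05 for Ighm and -0.74 for Mzb1. The 45 min arrays enter all of these values.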

How the results depend on the processing

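Over the planned settings (an added constant of 1 or 64, quantile normalization, median centring and the mean of probe sets), 44 of 45 counts of members past 2-fold stayed within 1.5 times of the count given. For 0 min kidneys of day 3 against day 1 the count was 1 in place of 2 with the mean of probe sets. Of single differences past 2-fold 0 changed sign and 7 dropped below 2-fold, all of Ighm or Igkv9-120, with 64 added or with the mean of probe sets. Smaller differences could change sign: with the mean of probe sets Ighm at 60 against 45 min of day 1 was -0.25 in place of 0.22, and at 60 min of day 3 against day 1 0.67 in place of -0.21. The limma count for clamped against 0 min was 1 with median centring and ran from 0 to 200 with an array left out. It was 200 (174 higher, 26 lower) without the 45 min array of day 3. For day 3 against day 1 it ran from 0 to 1, with 1 gene without the 45 min array of either day. The cause was not tested. In leave-out fits of the members, chosen after seeing the data, Igha differed between day 3 and day 1 by 1.36 with all arrays and by -0.45 to 2.34 with an array left out, the lowest being without the 45 min array of either day. No paired analysis was possible because each group has 1 array and the labels give no replicate numbers. Dim probe sets, below the filter level, limit what can be said of most variable segments.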

Other observations

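Some receptors for the constant part of IgG and some signals of plasma cell survival had another order of arrays than the antibody chains. Fcgr3, which encodes an activating IgG receptor of macrophages and NK cells, had intensities of 176, 225 and 255 at 0, 45 and 60 min of day 1, and of 315, 529 and 1740 at day 3. Fcer1g, the signalling chain shared by such receptors, had 194, 466 and 466 at day 1, and 456, 474 and 1817 at day 3. Vcam1, an adhesion molecule that lymphocytes and plasma cells bind, had 404, 526 and 1196 at day 1, and 682, 1481 and 3624 at day 3. The survival factor gene Tnfsf13b, which encodes BAFF, had 134, 109 and 64.7 at day 1, and 59.0, 111 and 233 at day 3, and Il6 stayed below the intensity filter with its highest value, 139, at 60 min of day 3. Each of these genes was highest at 60 min of day 3, where Igha was 6.86-fold below the 0 min kidney. Other genes of the same lists were not. The IgG receptor gene Fcgrt was lowest on that array (3470, against 4542 at 0 min of day 1). Cxcl12 had 3432 on it, against 4640 at 0 min of day 3.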
